A study of Mus musculus with 12 samples.

Results

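A very long locus is defined here as a run of transcripts that overlap on 1 strand of chromosomes 1 to 19 and that holds at least 1 transcript spanning 300 kb or more. There were 537 such loci among 26699 loci in the deposited table. The rule uses positions alone and no levels, but it was chosen with earlier results of these data known. Together they held 2941 transcripts, a median of 4 per locus against 2 per shorter locus, and the longest transcript spanned 3171 kb. By matching transcript spans to an annotation, 474 were named as 1 protein-coding gene, 14 matched a non-coding gene, 13 held 2 or 3 genes, 9 held 4 or more genes and 27 are given by position only.

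RNA was sequenced from 12 samples of mouse kidney cells taken at postnatal day 0. Every sample carried R26R-tdTomato, a red fluorescent reporter at the Rosa26 locus that Cre recombinase switches on, and flow cytometry was used to isolate the cells that express Six2, a transcription factor of nephron progenitors. By their titles, 8 samples are low expression (4 control and 4 mutant) and 4 are high expression (2 control and 2 mutant). They do not say which signal was low or high, which allele the mutants carry or which Cre was used, and no sample label names Eed, the Polycomb gene in the title of the series. Whether each sample is a separate animal is also not stated, so p-values reflect the spread over these libraries alone, and part of it may be technical.

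Genes of this span owe nearly all of their length to introns, and RNA polymerase II needs hours to cross one of them. Many encode cell adhesion molecules, ion channels and axon guidance receptors and are best known from neurons, several lie at common fragile sites, and a smaller number act in the kidney. Polycomb repressive complex 2, of which Eed is a core subunit, methylates histone H3 at lysine 27 and holds many developmental regulators silent outside their own tissue. Its known targets tend to have promoters rich in CG dinucleotides.

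To show the start sites behind the largest changes in low cells, promoters are printed for the named pair with the largest rises that also rose in high cells, Dner and Astn2, and for the pair with the largest falls, Pkhd1 and Cntnap2. Each runs from 250 bases before to 50 after the most upstream start in RefSeq (build GRCm38.p6), 5′ to 3′ along the gene's own strand, with CG dinucleotides in capitals. They lie at chr1:84696172-84696471 (Dner, minus strand), chr4:66404434-66404733 (Astn2, minus strand), chr1:20618008-20618307 (Pkhd1, minus strand) and chr6:45059811-45060110 (Cntnap2, plus strand).
Dner: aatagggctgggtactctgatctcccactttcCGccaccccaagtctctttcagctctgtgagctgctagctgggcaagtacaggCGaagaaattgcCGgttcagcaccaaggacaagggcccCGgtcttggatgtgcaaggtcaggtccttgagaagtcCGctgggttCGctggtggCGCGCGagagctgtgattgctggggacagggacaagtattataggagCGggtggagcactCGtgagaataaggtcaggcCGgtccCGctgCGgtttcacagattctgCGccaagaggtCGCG
Astn2: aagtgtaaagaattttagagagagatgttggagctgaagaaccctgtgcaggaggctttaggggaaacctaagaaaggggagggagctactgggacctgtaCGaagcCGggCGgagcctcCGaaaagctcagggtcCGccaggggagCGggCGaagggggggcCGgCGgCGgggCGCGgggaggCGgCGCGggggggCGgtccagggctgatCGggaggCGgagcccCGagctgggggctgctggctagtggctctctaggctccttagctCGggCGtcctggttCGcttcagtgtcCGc
Pkhd1: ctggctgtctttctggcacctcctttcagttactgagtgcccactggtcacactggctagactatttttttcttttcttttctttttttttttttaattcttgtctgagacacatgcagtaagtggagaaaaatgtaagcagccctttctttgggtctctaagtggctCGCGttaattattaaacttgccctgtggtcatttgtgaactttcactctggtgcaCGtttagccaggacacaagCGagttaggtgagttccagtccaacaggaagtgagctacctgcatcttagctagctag
Cntnap2: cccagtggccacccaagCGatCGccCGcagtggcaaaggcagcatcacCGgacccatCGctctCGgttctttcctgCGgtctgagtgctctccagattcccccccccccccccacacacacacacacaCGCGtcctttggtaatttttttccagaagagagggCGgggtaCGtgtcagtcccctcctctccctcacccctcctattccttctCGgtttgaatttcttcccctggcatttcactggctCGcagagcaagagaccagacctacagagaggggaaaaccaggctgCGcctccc
The windows hold 17 CG in Dner, 23 in Astn2, 4 in Pkhd1 and 14 in Cntnap2. CG reads the same on both strands. Over all genes of the RefSeq table the median was 7 (n = 27019) and 44.0% had 10 or more, while the 356 of 474 very long single-gene loci with a RefSeq promoter had a median of 19 and 74.2% had 10 or more. Among the tested long loci, the median was 14 for those higher in mutant low cells (n = 39), 11.5 for those lower in mutant low cells (n = 8), 17 for those higher in mutant high cells (n = 89), 19 for those lower there (n = 17) and 22.5 for those called in neither mutant comparison (n = 154), against 21 over all that were tested (n = 280). These are counts of letters in 300 bases and show no binding.

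Libraries held 4549011 to 12365078 fragments. The marker genes of the labelled cell type separated the titled populations: mean Six2 was 1703 CPM (library-scaled fragment counts, with TMM factors) in control low and 793 in mutant low cells, against 40.1 in control high and 105 in mutant high cells. The 5 proximal tubule markers summed to 36.4 to 213 CPM in control low, 4.63 to 19.3 in mutant low, 6774 to 8748 in control high and 1023 to 1038 in mutant high libraries. So the libraries titled high are low in the marker that names the sort. Eed transcripts averaged 14.1 CPM in control low and 8.44 in mutant low cells (log2 fold change -0.74, edgeR adjusted p = 0.107), and 8.90 in control high and 6.00 in mutant high cells (-0.57, adjusted p = 0.291), so the gene of the series title did not pass the test in either population. In RNA from bulk samples, fewer cells of a type and less RNA per cell cannot be told apart.

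Very long loci gave a small share of each library. It was 1.40% ± 0.0802 (SD, n = 4) of fragments in control low, 1.56% ± 0.150 (n = 4) in mutant low, 0.911% ± 0.0738 (n = 2) in control high and 1.34% ± 0.0671 (n = 2) in mutant high libraries. Both control high libraries, at 0.963% and 0.859%, lay below all 10 others, which ran from 1.29% to 1.72%. In the same pair chromosome M took 4.51% and 10.3% of fragments, where the other 10 libraries gave 0.494% to 1.96%, and the TMM factors were 0.770 and 0.776, where the others ran from 0.915 to 1.16. With chromosome M left out of the totals the high-cell difference was 0.370 percentage points in place of 0.428, and the rest of their part in the comparisons with control high cells was not tested. The low groups overlapped. In 2-sided exact permutation tests the shares gave p = 0.114 for mutant against control low cells, 0.333 in high cells, 0.0667 for high against low control cells and 0.267 for high against low mutant cells (adjusted over the 4 tests 0.229, 0.333, 0.229 and 0.333). The smallest p that 2 against 2 libraries allow is 0.333, and 4 against 2 allow 0.0667. With 10 abundant loci left out, the low-cell difference of 0.160 percentage points became 0.0325 and the mutant high against low difference of -0.222 became -0.0141.

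**Figure D1:**
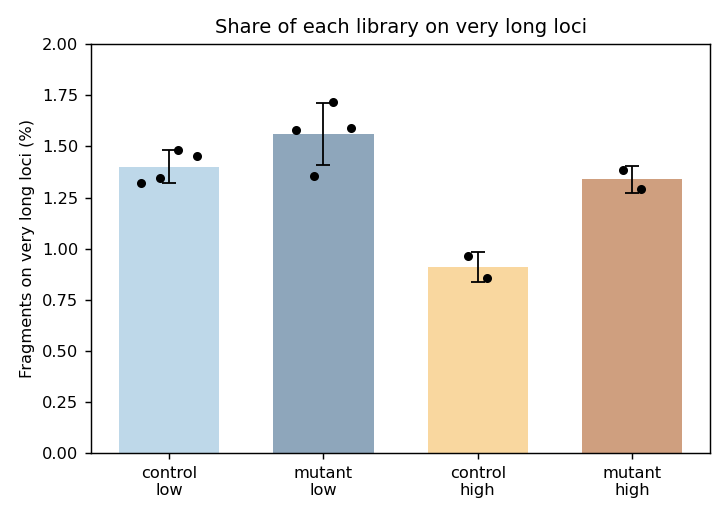
Share of each library's fragments on very long loci, in percent. Bars are group means with SD, and points are libraries (4, 4, 2 and 2). The 2 control high libraries, at 0.859% and 0.963%, are below every other library.

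Of the 537 loci, 328 reached a mean of 1 CPM in control low, 339 in mutant low, 306 in control high and 366 in mutant high cells. In that order these were 61.1%, 63.1%, 57.0% and 68.2%, against 45.8%, 45.2%, 46.8% and 48.3% of shorter loci. No fragment was seen in any library for 16 of the 537. The low-count filter kept 394 for testing and left out 143. A locus can pass that filter through 1 group alone, so counts over the 394 are described beside the same counts over all 13749 loci tested and are not read as tests. Levels in CPM are not divided by transcript length and are compared only within a gene. Of the 537, 175 overlap a locus on the other strand, and whether counting used strand was not given, so counts there are uncertain. Among the loci described further on these are Astn2, Ntm, Cntnap2, Nell1, Ralyl, Dscaml1, Fhod3, Kcnq1, Msra, Sema5a, C130026I21Rik, Cntn3, Esrrg, Zbtb20, Glis3, Mecom, Ank2, Nfia, Kirrel3 and the protocadherin, Srcap and antibody loci.

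The loci of greatest span lie in the antibody gene regions. Those on chromosome 6, at chr6:67505629-70690548 on the plus strand and chr6:67892067-70408032 on the minus strand, and on chromosome 12, at chr12:114493109-117248164, cover the immunoglobulin kappa and heavy chain regions. Their group means ran from 0.0966 to 6.10 CPM, and the mutant high value of 6.10 joins libraries at 2.22 and 9.97. Next in span came Cntnap2 (chr6:45010059-47251370, 2241 kb), a neurexin relative of nerve fibres, and Lsamp (chr16:39984483-42176405, 2192 kb), an adhesion molecule of the IgLON family. At the threshold itself, Jazf1, C130026I21Rik and Cntn3 lay just above 300 kb and Nxph1, Pde1c and Akap13 just below. Control low means were 2.78, 0.326 and 6.93 CPM above the line and 2.82, 1.56 and 120 CPM below it, and mutant low means were 4.68, 0.181 and 6.46 CPM above and 0.447, 1.47 and 101 CPM below.

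In low cells, more very long loci were higher in mutants than lower. Of 394 tested, 48 rose (12.2%) and 16 fell (4.06%), where 4.82% of all loci rose and 3.21% fell, 8.03% in either direction. Shorter loci weighted to the same expression classes gave 5.37% higher and 3.22% lower, and the median log2 fold change was 0.11 for very long loci against -0.09 for those. The sample descriptions carry a number from 4 to 11, and they do not say whether it marks an animal, a litter or a day. Within libraries whose description numbers are up to 7, 2 of each genotype, 4.01% were higher against 2.21% of matched shorter loci, and within those above 7, 7.36% against 3.95%. Leaving out 1 library at a time gave 8.18% to 14.2% higher. The share lower came to 2.29% without mutant low replicate 2, 2.31% without mutant low 4, 2.34% without control low 3, 2.56% without mutant low 1, 2.62% without control low 2 and 2.64% without control high 2.

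Loci of 100 kb to 1 Mb were higher in mutants in larger shares than loci of 10 to 100 kb. In low cells, 4.81% of loci under 10 kb, 3.42% of loci of 10 to 30 kb, 4.45% of 30 to 100 kb, 7.67% of 100 to 300 kb, 10.8% of 300 to 500 kb and 16.8% of 500 kb to 1 Mb were higher in mutants, and 7.89% of the 38 loci of 1 Mb or more. In high cells the same classes gave 13.8%, 13.9%, 16.8%, 22.6%, 29.3%, 38.3% and 26.3%. The shares lower in high-cell mutants, from the shortest class to the longest, were 14.3%, 11.9%, 9.15%, 8.72%, 9.64%, 1.87% and 7.89%. No trend over the classes was tested.

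**Figure D2:**
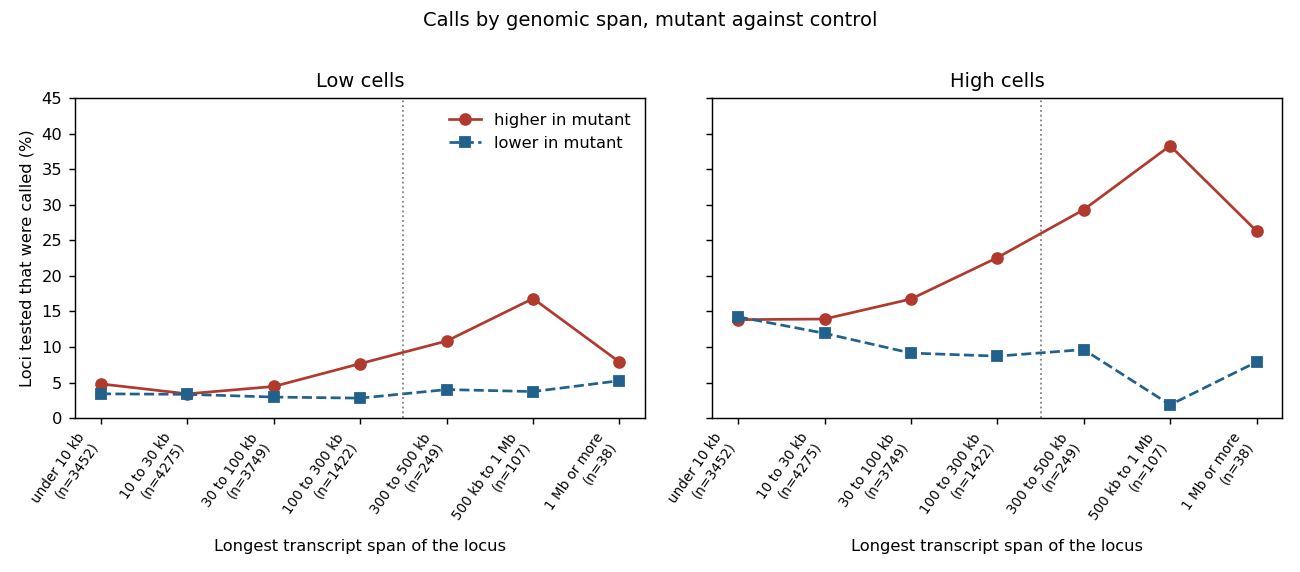
Percent of tested loci called higher (circles) or lower (squares) in mutants, by longest transcript span, in low cells (left) and high cells (right), with the number tested under each class. The dotted line marks 300 kb. The share higher climbs to 16.8% in low and 38.3% in high cells at 500 kb to 1 Mb and is 7.89% and 26.3% at 1 Mb or more.

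In high cells, very long loci were higher in mutants in 124 cases (31.5%) and lower in 29 (7.36%), where 16.3% of all loci were higher and 11.2% lower, 27.5% in either direction. Matched shorter loci gave 16.2% and 11.2%. The median log2 fold change was 0.68, or 0.64 with the 10 loci that had no fragment in 1 group set at their bound and 1, Rit2, with none in either set at no change, against 0.07 for matched shorter loci. Within description numbers up to 7, which leave 1 control high library that is assumed to vary like the other groups, 20.1% of very long loci and 10.3% of matched shorter loci were higher. The share lower was 3.83% when control high replicate 1 was left out, 2.88% for replicate 2 of that group and 1.93% for mutant high replicate 2. Without control high replicate 2 the share higher was 18.5%, and when each library's smooth trend on span was removed 15.2% were higher and 18.3% lower, against 14.3% and 12.3% of matched shorter loci.

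Of the 6 largest rises in low cells, 3 were at Dner, Astn2 and Ntm. Dner (chr1:84366413-84692796), a transmembrane Notch ligand, was at 0.117, 0.951, 1.84 and 1.23 CPM in the control low libraries and at 11.3, 3.05, 7.67 and 6.98 in the mutant low libraries. The groups did not overlap (log2 fold change 2.78, SE 0.53, edgeR adjusted p = 0.00386). Astn2 (chr4:65041836-66065517), an astrotactin of neuronal migration, went from 0.657 to 1.95 CPM in control low libraries to 9.01, 2.59, 8.78 and 7.15 in mutant low libraries (2.58, SE 0.43, adjusted p = 0.00151). Here too the lowest mutant library lay above the highest control library. Neither Dner (adjusted p = 0.0632) nor Astn2 (0.0725) was called within description numbers up to 7. Ntm (chr9:28803548-29770714), the IgLON protein neurotrimin, was at 19.1, 15.4, 10.3 and 17.3 CPM in control low and 82.9, 74.7, 131 and 82.4 in mutant low libraries (2.58, SE 0.25, adjusted p = 2.23e-05). In Ntm the mutant replicate at 131 CPM stands above the other 3, and the groups lay far apart.

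The other low-cell rises named here started from 1 CPM or less in control libraries. Car10 (chr11:92959723-93463065), a carbonic anhydrase relative without catalytic activity, was at 0.234, 0, 0.54 and 0 CPM in control low libraries, 7 fragments in all, and at 2.89, 2.74, 3.22 and 4.63 in mutant low libraries (4.06, SE 0.68, adjusted p = 0.00183). An unnamed locus, chr5:128263860-128938937, was at 0.468 to 0.973 CPM in control low and 5.54 to 8.11 in mutant low libraries (3.09, SE 0.33, adjusted p = 4.65e-05). In both loci every mutant library lay above every control library. Otud7a (chr7:70589657-70903913), a deubiquitinase, was at 0.234, 0, 0.324 and 0.328 CPM against 1.15, 0.457, 3.33 and 1.06 (2.61, SE 0.71, adjusted p = 0.0372). Its call rests on single libraries, since leaving out any of the control low libraries, either mutant high library or mutant low replicate 4 gave adjusted p of 0.0506 to 0.0824.

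The 6 largest falls in low cells were at Pkhd1, Cntnap2, the Nell1 locus, Phactr1, Ralyl and Fat3. Pkhd1 (chr1:20047859-20608138) encodes fibrocystin, the protein lost in recessive polycystic kidney disease, and was at 1.52, 8.15, 4.32 and 2.63 CPM in control low and 1.39, 0.305, 0.667 and 0.487 in mutant low libraries (-2.49, SE 0.53, adjusted p = 0.00817). The groups came close at 1.52 and 1.39, and the fall was not called within description numbers up to 7 (adjusted p = 0.291). Cntnap2 was at 3.63, 3.53, 4.32 and 2.71 CPM against 0.693, 1.52, 1 and 0.731 (-1.87, SE 0.34, adjusted p = 0.00295; 0.113 within description numbers up to 7). The locus of 4933405O20Rik and Nell1 (chr7:57230719-58118659), Nell1 being a secreted protein with EGF repeats, was at 290, 238, 142 and 227 CPM against 64.5, 75.9, 57.1 and 60.1 (-1.80, SE 0.32, adjusted p = 0.00252). It overlaps a locus on the other strand, and since the use of strand in counting was not given, its counts are uncertain. Phactr1 (chr13:42775991-43233881), a regulator of protein phosphatase and actin, was at 74.6, 126, 86.2 and 120 CPM against 28.5, 35.5, 32.8 and 31.6 (-1.66, SE 0.21, adjusted p = 0.000162). Counting only its transcripts of 300 kb or more gave -1.02, which was not called (adjusted p = 0.401).

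Ralyl (chr3:13471654-14182287), an RNA-binding protein, was at 109, 103, 101 and 160 CPM in control low and 26.7, 40.7, 33 and 53.9 in mutant low libraries (-1.62, SE 0.32, adjusted p = 0.00545). Fat3 (chr9:15714636-16182675), a giant cadherin, was at 7.72, 12.2, 11.5 and 5.66 CPM against 5.43, 2.59, 3.89 and 2.19 (-1.39, SE 0.38, adjusted p = 0.035). The Fat3 call was lost without control low replicate 2 or 3 or mutant low replicate 2, 3 or 4 (adjusted p 0.0681 to 0.123). In control high cells the mean levels were 3.03 CPM for Ralyl, 0.142 for Fat3, 5.11 for the Nell1 locus and 12.7 for Phactr1. So 4 of the 6 low-cell falls named here were at genes whose mean was lower in high than in low control cells. The falls share the control low libraries with those means, so this count is not read as a result. Of the 5 nephron progenitor markers found among 6 listed, 2 fell in mutant low cells and their summed level went from 2042 to 3028 CPM in control to 1087 to 1377 in mutant libraries. All 5 proximal tubule markers fell too, from the control low sums of 36.4 to 213 CPM to 4.63 to 19.3. The part of these changes in the falls of very long loci was not tested.

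**Figure D3:**
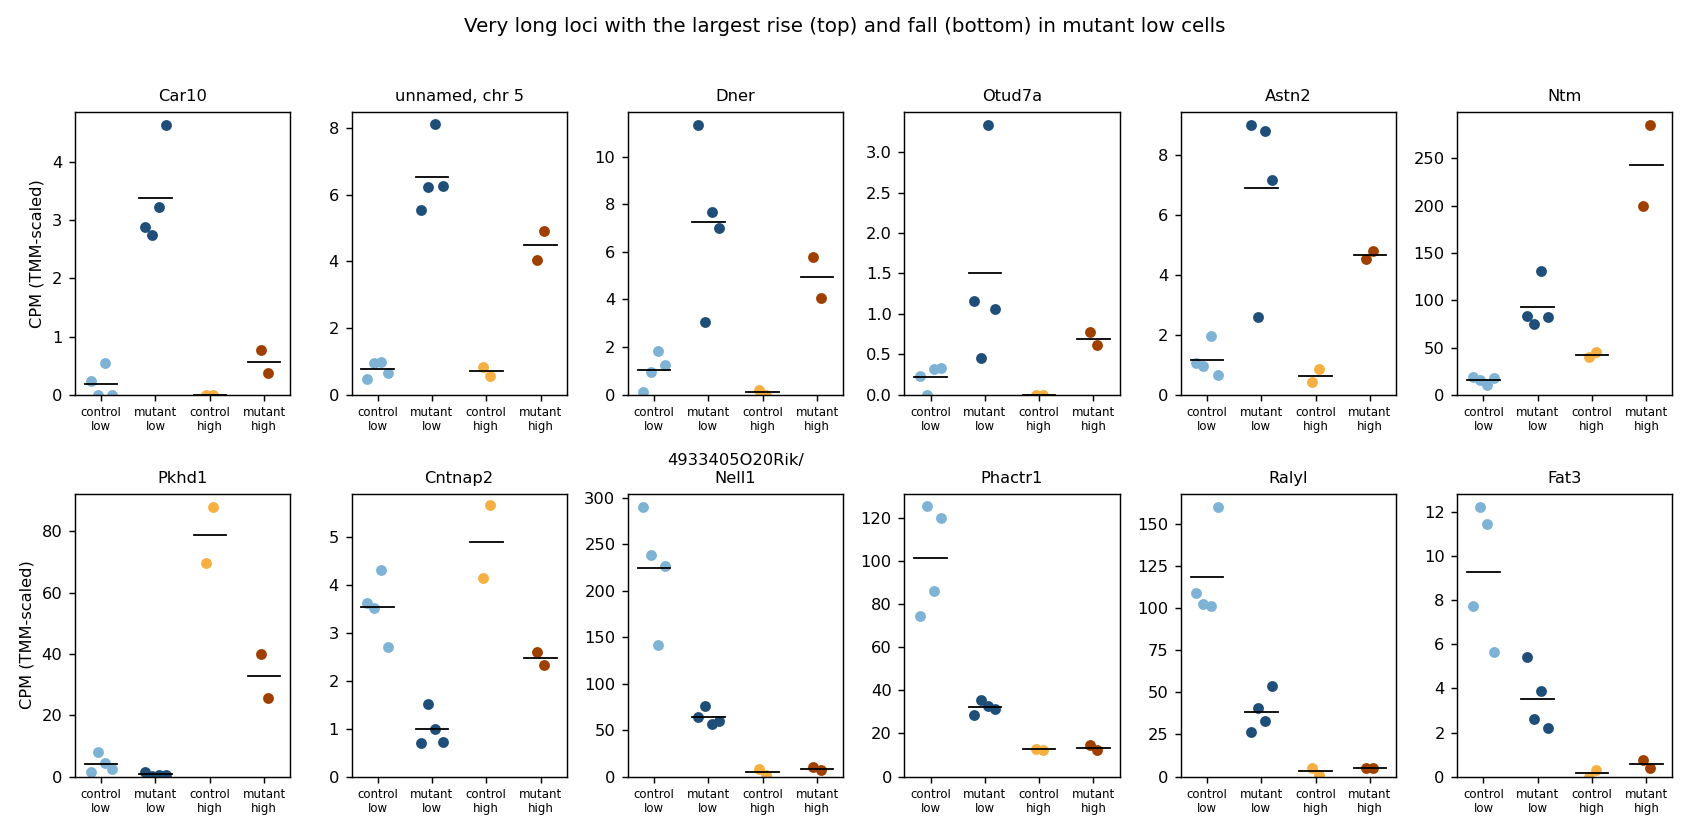
CPM of the 6 very long loci with the largest rise (top) and the 6 with the largest fall (bottom) in mutant low cells, by group. Points are libraries and lines are means, each panel with its own axis from 0. All 4 mutant low libraries lie above all 4 control low libraries in the top panels and below them in the bottom panels.

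In high cells the 6 largest rises named by the same rule were at Sorcs3, Thsd7b, Lsamp, Dscaml1, Kcnd2 and Dner, from control levels of a few fragments. Sorcs3 (chr19:48280514-48879995), a sorting receptor of the sortilin family, was at 0.624 and 0.851 CPM in control high and 14.8 and 11.8 in mutant high libraries (4.17, SE 0.59, edgeR adjusted p = 0.000295). Thsd7b (chr1:131169880-132115855), a membrane protein with thrombospondin repeats, was at 1.04 and 0 CPM against 10.6 and 10.7 (4.16, SE 0.68, adjusted p = 0.000691). Lsamp was at 0 and 0.284 CPM, 1 fragment, against 3.28 and 5.91 CPM, 82 fragments (5.07, SE 0.82, adjusted p = 0.000655), a ratio of 37.0 with an exact 95% counting interval of 6.45 to 1478. Dscaml1 (chr9:45234710-45561796), an immunoglobulin adhesion molecule of neurite self-avoidance, was at 0.208 and 0.284 CPM against 9.18 and 5.54 (4.86, SE 0.95, adjusted p = 0.00206), a ratio of 31.6 (8.58 to 263). In each of the 4 both mutant libraries exceeded both control libraries.

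Kcnd2 (chr6:21166108-21679805), a voltage-gated potassium channel, was at 0.208 and 0 CPM against 3.09 and 2.46 (4.39, SE 0.95, adjusted p = 0.00377), a ratio of 23.4 (4.03 to 944). Dner was at 0.208 and 0 CPM against 5.80 and 4.06 (5.21, SE 1.20, adjusted p = 0.0058), a ratio of 41.9 (7.34 to 1674). Intervals cover counting error only. Without control high replicate 2 the Dner rise was not called (4.47, adjusted p = 0.0558), and with 1 library left in an arm that library is assumed to vary like the other groups. Of the neuron and glia markers, Elavl3 averaged 0 CPM in control high and 0.0483 in mutant high cells, and 0.104 in control low and 0.276 in mutant low cells. Sox10 was at 0 in both high groups and averaged 0.0908 CPM in control low and 0.0780 in mutant low cells. Both were too low to be tested. The 2 stroma markers found among 4 listed summed to 21.4 to 28.6 CPM in control high and 126 to 209 in mutant high libraries, and both rose. The 5 nephron progenitor markers found summed to 26.1 to 97.8 CPM in control high and 152 to 184 in mutant high libraries. Of these, 2 rose and 0 fell. The 2 markers of committing nephrons found among 4 listed went from sums of 152 to 205 CPM to 415 to 607, and both rose. Of 4 podocyte markers 2 rose, and all 5 proximal tubule markers fell. The part of these markers in the rises was not tested.

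The 6 largest falls in high cells were at Slc4a4, Fggy, Fhod3, Abca13, Ano4 and an unnamed locus. Slc4a4 (chr5:89316284-89668681), the sodium bicarbonate cotransporter of the proximal tubule, was at 370 and 260 CPM in control high and 84.1 and 50.2 in mutant high libraries (-2.23, SE 0.34, adjusted p = 0.000467). Fggy (chr4:95224197-95593630), a carbohydrate kinase, was at 60.5 and 56.7 CPM against 13.4 and 18.8 (-1.86, SE 0.41, adjusted p = 0.0042). These calls held without any 1 library. Fhod3 (chr18:24867945-25292002), a formin of actin assembly, was at 56.4 and 64.9 CPM against 16.9 and 14.3 (-1.96, SE 0.46, adjusted p = 0.00616; 0.0638 without mutant high replicate 2). Abca13 (chr11:9091944-9584262), an ABC transporter, was at 17.1 and 59.3 CPM against 5.89 and 7.26 (-2.53, SE 0.70, adjusted p = 0.0162). Its call was lost without control high replicate 2 (-1.39, adjusted p = 0.241), mutant high replicate 1 (0.0987) or mutant high replicate 2 (0.0846).

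Ano4 (chr10:88411738-88720535), of the anoctamin family, was at 15.6 and 10.5 CPM in control high and 2.71 and 4.92 in mutant high libraries (-1.78, SE 0.55, adjusted p = 0.0272). It was not called without control high replicate 1 (0.163), mutant high replicate 1 (0.168) or mutant high replicate 2 (0.0538), and counting only transcripts of 300 kb or more it was at -0.48 (0.656). An unnamed locus, chr17:81772444-82137717, was at 57.6 and 130 CPM against 18.2 and 35.6 (-1.80, SE 0.57, adjusted p = 0.031), and was not called without control high replicate 2 (0.262) or mutant high replicate 1 (0.18). All 5 proximal tubule markers fell in mutant high cells, from a sum of 6774 to 8748 CPM to 1023 to 1038. The part of that change in the falls of very long loci was not tested.

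The low and high comparisons between genotypes share no library, although 2 control libraries of each population carry the same description numbers, and so do 2 mutant libraries. In both, 32 very long loci rose, which is 66.7% of those that rose in low cells and 25.8% of those that rose in high cells. Over all loci tested, 419 rose in both, or 63.2% and 18.7%, so the first share is near that of all loci. They are Thsd7b, Kcnh1, Dner, Ptprk, Ebf1, Tenm2, Ntrk2, Adcy2, Rims2, Ptprm, Chsy3, Sorcs3, Prkg1, Bmpr1b, Dab1, Astn2, Sema3a, Tmem132c, Caln1, Foxp2, Kcnd2, Sox5, Sorbs2, Tenm3, Dscaml1, Cadm1, Ntm, Thsd4, Clstn2, Ephb1 and unnamed loci that start at chr17:52742087 and chr5:128263860. Their log2 fold changes ran from 0.86 to 3.09 in low cells and from 0.81 to 5.21 in high cells. In high cells Ntm was at 39.5 and 45.4 CPM in control and 200 and 286 in mutant libraries (2.52, SE 0.36, adjusted p = 0.000289), and Astn2 at 0.416 and 0.851 against 4.54 and 4.80 (2.91, SE 0.76, adjusted p = 0.0111). In neither population did the genotypes overlap at these loci.

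Of the very long loci, 1 fell in both populations, 6.25% of the falls in low cells and 3.45% of those in high cells. Over all loci tested, 212 fell in both, or 48.1% and 13.8%. None of the 48 very long loci that rose in low cells fell in high cells, against 16 of the 663 that rose in low cells over all loci tested. Both shares are small, so this absence is not read as a result. The reverse, lower in low and higher in high cells, was seen at 44 of all loci, or 9.98% of low-cell falls. Among very long loci it was seen at 5, or 31.25%: Robo2, Chst9, Sorcs2, Adamts17 and Cdh13. Sorcs2 and Adamts17 are named because this count is small, after their values were seen. Cdh13 (chr8:120807654-121847348), the lipid-anchored T-cadherin, was at 20.9, 17.7, 20.6 and 19.9 CPM in control low, 8.43, 7.77, 13.4 and 12.3 in mutant low, 1.04 and 0.851 in control high and 14.1 and 11.3 in mutant high libraries. The mutant groups overlapped each other at a level between the control groups. Sorcs2 averaged 36.2, 16.1, 2.997 and 12.5 CPM and Adamts17, a secreted metalloprotease, 12.6, 5.22, 0.596 and 3.21 CPM in the same order.

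**Figure D4:**
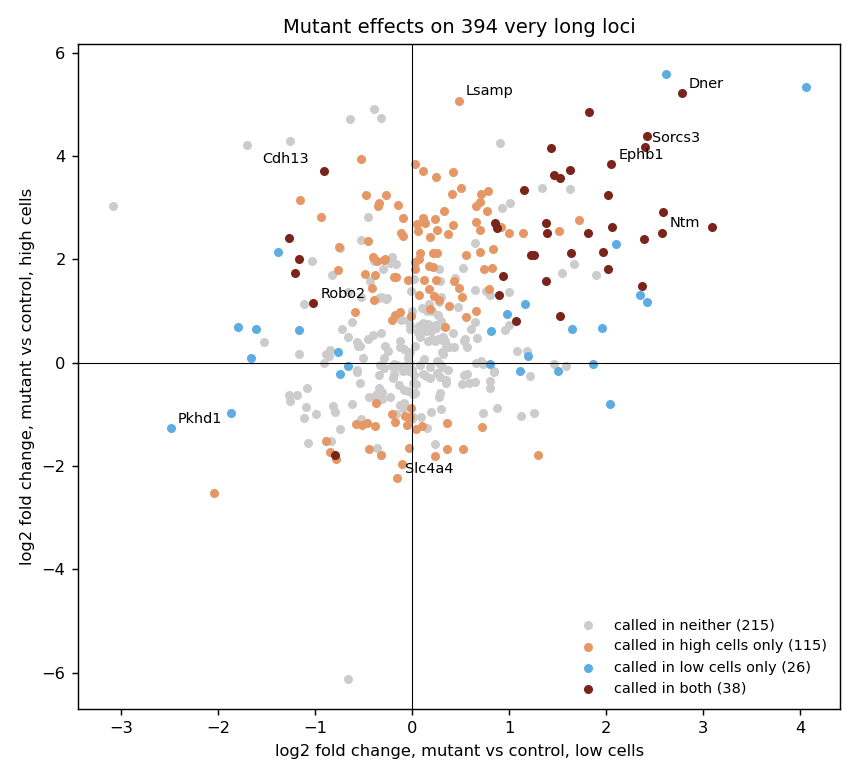
Log2 fold change of mutant against control in low cells (horizontal) and high cells (vertical) for the 394 very long loci tested, coloured by whether edgeR called them in neither (215), high only (115), low only (26) or both (38) comparisons. The 32 loci that rose in both lie at upper right, and the 5 with opposite calls, Cdh13 and Robo2 among them, at upper left.

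The difference of the mutant effects (high minus low) was tested directly. It was positive for 63 very long loci (15.99%) and negative for 11 (2.79%), where 7.29% of all loci were positive and 3.05% negative, 10.3% in either direction, and matched shorter loci gave 6.85% and 2.68%. When the span trend of each library was removed the direction turned, with 7.61% positive and 10.4% negative against 5.61% and 3.51% of matched shorter loci. That trend was fitted on these loci too, so its removal takes out group differences that follow span. The smallest adjusted p belonged to Cdh13 (difference 4.63, SE 0.50, edgeR adjusted p = 0.00048). Dtna, the dystrobrevin of the dystrophin complex, averaged 50.6 CPM in control low, 26.3 in mutant low, 2.51 in control high and 18.3 in mutant high cells (3.76, SE 0.56, adjusted p = 0.00162). Mdga2, a membrane-anchored partner of neuroligins, averaged 33.9, 28.0, 0.737 and 6.95 CPM in that order (3.52, SE 0.54, adjusted p = 0.00167), and Pclo, a scaffold of the presynaptic active zone, 27.4, 16.2, 2.03 and 9.61 CPM (2.99, SE 0.47, adjusted p = 0.00185). Chst9, a carbohydrate sulfotransferase, averaged 23.9, 10.4, 5.31 and 17.5 CPM (2.95, SE 0.47, adjusted p = 0.00205). At these 5 loci the mean in control low cells was the highest of the 4 groups. That mean enters the difference by which they were chosen, so the order is not read as a result. Counting only transcripts of 300 kb or more, the difference was not called at Pclo (8.06, adjusted p = 0.111) or Chst9 (2.44, adjusted p = 0.223). Without control high replicate 2 the positive share was 5.76%, without mutant high replicate 2 it was 9.40% and without control high replicate 1 it was 10.5%. The negative share without these libraries was 1.68%, 0.964% and 1.67%.

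At all 11 loci with a negative difference, control high cells had a higher mean than control low cells. Both means enter the difference, so choosing on it favours that order, and the count is not read as a result. Msra, methionine sulfoxide reductase, was at 275 to 333 CPM in control low, 277 to 518 in mutant low, 1601 and 1016 in control high and 383 and 443 in mutant high libraries (-2.02, SE 0.39, adjusted p = 0.0058). Nedd4l, the ubiquitin ligase that limits the epithelial sodium channel, averaged 8.16, 13.5, 157 and 65.9 CPM in that order (-1.97, SE 0.42, adjusted p = 0.00969; 0.059 without mutant high replicate 2). Itpr1, a calcium release channel, averaged 12.5, 12.2, 117 and 37.2 CPM (-1.61, SE 0.35, adjusted p = 0.0102; 0.0615 without mutant high replicate 2). Counting only transcripts of 300 kb or more, Msra (-2.51, adjusted p = 0.0601) and Nedd4l (-3.95, adjusted p = 0.38) were not called. Slc4a4 averaged 6.29, 5.63, 315 and 67.1 CPM (-2.08, SE 0.42, adjusted p = 0.00698). Sema5a, an axon guidance ligand that rose in low cells (1.11, SE 0.16, adjusted p = 0.000569), was at 47.4, 59.5, 59.1 and 59.4 CPM in control low and 125, 119, 133 and 111 in mutant low, against 154 and 143 in control high and 136 and 129 in mutant high libraries (-1.28, SE 0.28, adjusted p = 0.0116; 0.0512 without mutant high replicate 2).

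Between populations of control kidneys, very long loci were more often lower in high cells. Of 394, 95 were higher in high cells (24.1%) and 138 lower (35.0%), where 25.3% of all loci were higher and 27.0% lower, 52.3% in either direction, and matched shorter loci gave 26.1% and 24.6%. When the span trend of each library was removed the direction turned, with 30.5% higher and 25.4% lower against 27.5% and 22.4% of matched shorter loci. Group differences that follow span are taken out by that step. The median log2 fold change was -0.56, or -0.55 with 10 loci at their bound, against -0.07 for matched shorter loci. The median over all loci was -0.13 with TMM and -0.03 with RLE size factors, under which the very long loci had -0.46. Without control high replicate 2 the share lower was 22.8%. In mutant kidneys, 83 were higher in high cells (21.1%) and 61 lower (15.5%), where 19.0% of all loci were higher and 13.2% lower, 32.2% in either direction, and matched shorter loci gave 20.6% and 11.6%. Without mutant high replicate 1 these shares were 12.8% and 8.94%, and without replicate 2 the share lower was 9.16%. The mutant median was -0.02 with TMM and 0.01 with RLE size factors, so its sign depends on the scaling. These comparisons share libraries with the comparisons between genotypes, so their values are set side by side and no overlap is counted.

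Kcnq1, Slc14a2, Vav3 and Pcdh9 were among the loci named for a higher level in high cells. Kcnq1 (chr7:150293158-150612947), a potassium channel of epithelia, was at 1.52 to 4.08 CPM in control low and 49.5 and 92.1 in control high libraries (4.82, SE 0.39, adjusted p = 2.53e-07), and averaged 1.40 in mutant low and 36.5 in mutant high cells (4.67, SE 0.40, adjusted p = 8.64e-07). Pkhd1 averaged 4.16 CPM in control low and 78.8 in control high cells and 0.711 and 32.8 in mutant low and high cells. Slc14a2, the urea transporter of the collecting duct, was at 23.3 and 1.42 CPM in the control high libraries and at most 0.815 in control low libraries (5.73, SE 1.15, adjusted p = 0.00134). Its value rests on 1 library: without control high replicate 1 it was not called (2.57, adjusted p = 0.203). Vav3, an exchange factor for small GTPases, averaged 1.64 CPM in mutant low and 33.7 in mutant high cells (4.36, SE 0.46, adjusted p = 5.28e-06), and Pcdh9, a protocadherin, 0.099 and 1.96 CPM (4.02, SE 0.87, adjusted p = 0.00279).

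Lsamp, Fat3, Anks1b, Diaph3 and Dlc1 were among those named for a lower level in high cells. Lsamp was at 8.89, 11.4, 13.3 and 8.45 CPM in control low libraries against 0 and 0.284 in control high libraries (-6.27, SE 0.75, adjusted p = 7.4e-06), and averaged 14.6 and 4.60 CPM in mutant low and high cells. Mdga2 was at 24.2, 26.5, 42.4 and 42.6 CPM in control low libraries and 0.624 and 0.851 in control high libraries. Fat3 had 331 fragments in control low and 1 in control high libraries, a ratio of 73.9 (13.2 to 2926). Anks1b, a postsynaptic scaffold protein, averaged 23.2 CPM in mutant low and 3.67 in mutant high cells (-2.66, SE 0.32, adjusted p = 2.01e-05), and Diaph3, a formin, 5.03 and 0.729 CPM (-2.75, SE 0.60, adjusted p = 0.00276; -1.89 and 0.0508 with the description number as a block). Dlc1, a GTPase activator, had mutant low libraries at 16.2, 54.9, 366 and 146 CPM and mutant high libraries at 4.35 and 21 (-3.53, SE 1.20, adjusted p = 0.0475). Leaving out any 1 library other than mutant low replicate 1 or 2 ended that call (adjusted p 0.0583 to 0.222).

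Pcdh15, a cadherin of hair cells, Rit2, a neuronal GTPase, and Trhde, a peptidase that degrades thyrotropin-releasing hormone, were at 0 fragments in both control high libraries. Against a floor of 3 fragments over the group, 0.360 CPM, they were at least 2.98-fold, 2.90-fold and 2.83-fold lower than in control low cells. Leaving out either control high library ended these 3 calls (adjusted p 0.0652 to 0.144), and Pcdh15 was not called with the span trend removed (0.06).

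Of the 8 loci named for the highest level, 1, Cadm1, was called between genotypes in low cells. The protocadherin alpha, beta and gamma clusters merge into 1 locus (chr18:37089938-38001526) that averaged 1106 CPM in control low, 968 in mutant low, 119 in control high and 375 in mutant high cells, with a rise in high cells (1.65, SE 0.28, adjusted p = 0.000797). Ltbp1, which stores latent TGF-beta in the matrix, was at 39.3 and 47.1 CPM in control high and 551 and 308 in mutant high libraries (3.31, SE 0.62, adjusted p = 0.00191), and its mutant low libraries spread from 580 to 2117 CPM. Cadm1, an immunoglobulin adhesion molecule, was at 339 to 415 CPM in control low and 629, 609, 1079 and 625 in mutant low libraries (0.94, SE 0.26, adjusted p = 0.0342). Babam2, of a BRCA1 complex, averaged 318, 310, 491 and 439 CPM in control low, mutant low, control high and mutant high cells and passed no test. A locus of 4 or more genes with Srcap, chr7:134376768-134776537, averaged 651, 665, 364 and 453 CPM in that order and was lower only in control high against control low cells (adjusted p = 0.00912).

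By function, 288 of the 537 loci were in at least 1 of 8 lists, and none of the lists was tested as a set. Counts are read against all loci tested, of which 4.82% rose and 3.21% fell in low cells and 16.3% rose and 11.2% fell in high cells, and a share near those is not read as a result. Every list member is a very long locus. Of all very long loci tested, 12.2% rose and 4.06% fell in low cells, and 31.5% and 7.36% in high cells. A list share near these is not particular to the list. The adhesion and synapse list had 63 loci with 44 tested. In low cells 12 rose and 3 fell, with a median log2 fold change of 0.45 against -0.06 over all loci tested, and in high cells 19 rose and none fell, with a median of 1.81 against 0.08. Over all very long loci tested the medians were 0.11 in low and 0.68 in high cells. The axon guidance, Eph and ErbB list had 23 loci with 19 tested: 6 rose and 2 fell in low cells (median 0.77), and 9 rose and none fell in high cells (1.43). Ephb1, an ephrin receptor, averaged 8.38 CPM in control low, 34.9 in mutant low, 1.96 in control high and 28.8 in mutant high cells and rose in both (2.05 and 3.84, adjusted p = 0.000128 and 8.84e-05).

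Among ion channels and neurotransmitter receptors (42 loci, 26 tested), 2 rose (7.69%) and none fell in low cells, and 10 rose (38.5%) and 2 fell (7.69%) in high cells. The low-cell share is near the 4.82% of all loci. The 2 that rose in low cells, Kcnh1 and Kcnd2, are potassium channels and also rose in high cells, and the 2 that fell are Ano4 and Slc4a4. Among transcription, chromatin and RNA regulators (45 loci, 42 tested), 4 (9.52%) rose in low cells, namely Ebf1, Nfia, Foxp2 and Sox5, and 16 (38.1%) rose and 1, Esrrg, fell in high cells. Foxp2, a forkhead repressor known from speech circuits, averaged 0.836, 3.29, 1.23 and 5.39 CPM in control low, mutant low, control high and mutant high cells (1.96 and 2.14, adjusted p = 0.00416 and 0.0119). Sox5, an SRY-box factor, averaged 1.65, 5.25, 3.08 and 13.5 CPM in that order (1.64 and 2.12, adjusted p = 0.00814 and 0.00639). Both had higher means in mutants of each population from low control levels.

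Among kinases, phosphatases, phosphodiesterases and G protein signalling genes (52 loci, 43 tested), 9 rose (20.9%, against 4.82% of all loci) and none fell in low cells, and 13 rose (30.2%, against 16.3%) and 1, Arhgap24, fell in high cells. The 30.2% is near the 31.5% of all very long loci tested. Ntrk2, the receptor for brain-derived neurotrophic factor, averaged 3.63, 15.2, 2.07 and 12.8 CPM (2.06 and 2.62, adjusted p = 0.000294 and 0.000851). Of the extracellular matrix, cytoskeleton and polarity genes (38 loci, 27 tested), Thsd7b and Thsd4 (7.41%) rose in low cells, and 12 rose (44.4%) and 3 fell (11.1%, the share of all loci being 11.2%) in high cells. Those that fell were Ank3, an ankyrin of lateral membranes that averaged 472 CPM in control high and 211 in mutant high cells (-1.16, SE 0.28, adjusted p = 0.00749), Utrn and Gpc5. The genes of common fragile sites and of metabolism (25 loci, 23 tested) had 1 fall and no rise in low cells and 3 rises and 4 falls in high cells, where 16.3% of all loci rose and 11.2% fell, with a high-cell median of -0.14. Among those falls was Fhit, a fragile-site tumour suppressor, at 60.4 CPM in control high and 25.8 in mutant high cells (-1.23, SE 0.31, adjusted p = 0.00921). Ephb1, Foxp2, Sox5, Ntrk2 and Fhit were picked as examples after their values were seen.

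**Figure D5:**
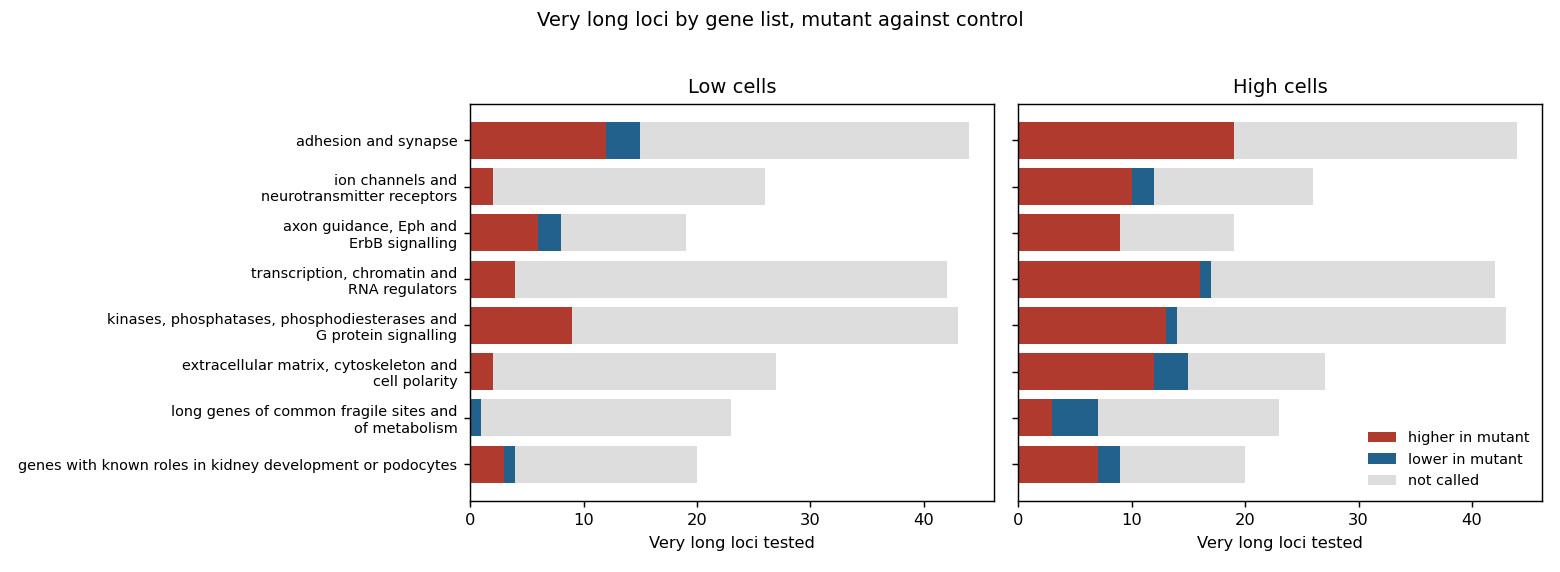
Number of very long loci tested in each of 8 gene lists, divided into those higher in mutants (red), lower (blue) or not called (grey) by edgeR, in low cells (left) and high cells (right). The adhesion and synapse list has 12 higher and 3 lower of 44 in low cells and 19 higher and 0 lower in high cells.

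All 20 very long genes on the list of kidney development and podocyte roles were tested. In low cells Bmpr1b, Nfia and Kirrel3 rose and Robo2 fell, and in high cells 7 rose, among them Zfpm2, Zbtb20, Robo2, Cdh4, Bmpr1b and Slit2, and Esrrg and Arhgap24 fell. So 3 rose and 1 fell in low cells, where 4.82% of all loci rose and 3.21% fell, and 7 (35.0%) rose and 2 fell in high cells, where 16.3% rose and 11.2% fell. The falls are near the background. Robo2 (chr16:73892550-74411157), the Slit receptor that restrains budding of the ureter, was at 270, 323, 363 and 307 CPM in control low, 168, 162, 122 and 169 in mutant low, 26.8 and 11.9 in control high and 51.9 and 35 in mutant high libraries. It fell in low cells (-1.02, SE 0.24, adjusted p = 0.014) and rose in high cells (1.15, SE 0.35, adjusted p = 0.0246), and the difference passed its own test (2.18, SE 0.42, adjusted p = 0.00581). The low-cell fall was not called within description numbers up to 7 (-0.85) or against a fold of 1.5 (adjusted p = 0.17). In the 8 libraries that share a description number it was not called either (-1.06, adjusted p = 0.199). The high-cell rise was lost without control high replicate 2 (0.69, adjusted p = 0.236) or mutant high replicate 1 (0.84, adjusted p = 0.168), or with the span trend removed (0.35, adjusted p = 0.492). Its ligand gene Slit2 (chr5:48374393-48697017) was at 26.2 and 42.2 CPM in control high and 101 and 82.2 in mutant high libraries (1.43, SE 0.39, adjusted p = 0.0145), and was not called without control high replicate 1 (0.109) or mutant high replicate 1 (0.0615), counted on transcripts of 300 kb or more (0.0658) or with the span trend removed (0.133).

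Bmpr1b (chr3:141500099-141832182), a type I receptor for bone morphogenetic proteins, was at 17.5, 19.7, 20.6 and 21 CPM in control low and 37.1, 27.1, 38.2 and 44.3 in mutant low libraries (0.90, SE 0.21, adjusted p = 0.0127; 0.0557 without mutant low replicate 4). In high cells it was at 8.74 and 11.1 CPM against 22 and 26.8 (1.31, SE 0.31, adjusted p = 0.0061), and counting only its transcripts of 300 kb or more the fitted value was -5.20 (adjusted p = 0.198), and 4.58 in low cells (adjusted p = 0.206). With the span trend removed the high-cell value was 0.65 (adjusted p = 0.107). Nfia (chr4:97248633-97785567), a nuclear factor linked to urinary tract malformation, was at 12.7, 14.9, 29.2 and 23 CPM against 53.1, 50.7, 64.1 and 82.3 in low cells (1.65, SE 0.27, adjusted p = 0.0013). Cdh4, or R-cadherin, was at 47 and 25.8 CPM in control high and 153 and 264 in mutant high libraries (2.51, SE 0.49, adjusted p = 0.0022), and in low cells its mutant libraries spread from 566 to 1573 CPM (0.9988, adjusted p = 0.0833). Kirrel3, a nephrin relative, had control low libraries at 0 to 0.492 CPM and mutant low libraries at 0.808, 1.22, 2.67 and 1.62 (2.42, SE 0.68, adjusted p = 0.0389). Its call was lost without control low replicate 1, 2 or 3 or mutant low replicate 3 or 4 (adjusted p 0.0536 to 0.126), on transcripts of 300 kb or more (0.0537) and with the span trend removed (0.0509).

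Of the transcription factors on that list, Zbtb20 was at 46.2 and 41.1 CPM against 79.3 and 124 (1.22, SE 0.28, adjusted p = 0.00573; 0.0638 without mutant high replicate 2), and at 0.35 with the span trend removed (adjusted p = 0.346). Zfpm2, a GATA cofactor, had 3 fragments in control high and 38 in mutant high libraries, a ratio of 5.71 (1.81 to 28.9; adjusted p = 0.0452), and leaving out any of control low 1 or 2, control high 2, mutant high 1 or 2 or mutant low 1 or 2 ended the call (0.0515 to 0.236), as did counting only transcripts of 300 kb or more (0.0665) and removing the span trend (0.164). Esrrg, a nuclear receptor of mitochondrial metabolism, averaged 130 CPM in control high and 65.5 in mutant high cells (-0.99, SE 0.29, adjusted p = 0.0214). Arhgap24, a GTPase activator of podocytes, was at 276 in both control high and 118 and 122 CPM in mutant high libraries (-1.21, SE 0.40, adjusted p = 0.0371). For Esrrg and Arhgap24, leaving out any 1 high library ended the call (adjusted p 0.0552 to 0.135).

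The other 9 passed no test between genotypes. Podocyte scaffold Magi2 averaged 7.24, 7.00, 5.05 and 5.82 CPM and the polarity gene Pard3 90.2, 95.4, 52.4 and 73.8 CPM in control low, mutant low, control high and mutant high cells. Mecom, a zinc-finger transcription factor, averaged 42.1, 66.4, 157 and 157 CPM (low cells 0.66, adjusted p = 0.061), and Glis3, a gene of cystic kidney disease, 2.29, 6.91, 11.6 and 11.1 CPM (1.58, adjusted p = 0.0531). Mean levels of Prdm16, Fras1 and Erbb4 were 3.001, 19.5 and 0.736 CPM in control low and 31.2, 74.2 and 8.99 in control high cells. Dach1 and Ank2 had means of 31.6 and 10.6 CPM in control low and 17.0 and 4.84 in control high cells. Podocyte markers summed to 30.9 to 60.2 CPM in control low and 96.8 to 210 in mutant low libraries, and 42.0 to 79.9 in control high and 86.8 to 314 in mutant high libraries, with 2 of 4 called higher in each mutant comparison. Their part in the results for this list was not tested.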

How the data were processed

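RNA-seq was measured in 12 samples. The authors deposited estimated counts of fragments per UCSC transcript, a table whose own title names CuffDiff2, while Bowtie2, HTSeq, DESeq2 and the mm9 build are named per the submitters' processing notes. Aligner settings and whether strand was used in counting were not given in the sources used here. Coordinates are mm9 as deposited, and the base from which starts are counted is not stated.

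Transcripts that overlap on 1 strand were summed to loci and rounded to whole numbers. Of 55418 transcripts, 303 have no position and held 0 fragments. Names come from matching spans, within 1%, to GENCODE M21 (mm10) on the same chromosome and strand. CPM values were computed here with TMM scaling. edgeR 4.0.16 (R 4.3.3, limma 3.58.1) quasi-likelihood tests, 2-sided, robust, after filterByExpr, used all 12 samples in 4 groups, with Benjamini-Hochberg adjustment over 13749 loci and a threshold of 0.05. Log2 fold changes are from that fit. Matched shorter loci were weighted over 10 classes of mean level. The code was tested on simulated data. Python 3.11.15 was used for summaries.

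Named were the 6 largest rises and 6 largest falls of each comparison (log2 fold change of at least 1, mean of at least 1 CPM in the higher group), the 5 positive and 5 negative differences of effects with the smallest p, the loci with the highest level or longest span or just above the threshold, and the kidney list. The members and lists were chosen with earlier results of these data known. Alternatives were RLE factors, DESeq2 1.42.0, other filters, fold and span thresholds, transcripts summed, replicate blocks, description numbers and leaving out each library. Another removed each library's smooth trend on span. It was fitted on all loci tested, very long ones included, so its removal takes out group differences that follow span, whatever their source. Title numbers did not clearly pair the samples. Same-numbered low samples of the 2 genotypes correlated at 0.0671 to 0.467, but these values belong to a wider block. Low replicates 1 and 2 of either genotype correlated positively with replicates 1 and 2 of the other, and so did replicates 3 and 4. All pairs across these sets were negative (-0.419 to -0.0749). The sets are those of lower and higher description numbers, and what their libraries share was not tested. High samples gave -0.0550, which cannot decide pairing, since deviations of 2 libraries mirror each other. Description numbers gave -0.0836 to 0.225, with the same limit. Results for a few genes are not reported here.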

Additional observations from a re-analysis of the deposited data

Results flagged for a closer look

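Single libraries stood apart from the 3 others of their group at 11 places. In control low cells these were Ralyl in replicate 4 (160 CPM), Rit2 in replicate 2 (2.04), Sema5a in replicate 1 (47.4, the lowest) and the immunoglobulin heavy chain locus chr12:114493109-117248164 in replicate 3 (3.35). In mutant low cells they were Ntm (131 CPM), Cadm1 (1079) and Robo2 (122, the lowest) in replicate 3, Sorcs3 (3.66) and Rit2 (1.22) in replicate 2, and Vav3 (2.66) and the kappa locus chr6:67892067-70408032 (1.39) in replicate 1. Chance gives such a gap in about 1 in 20 groups.

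The mutant effect differed between populations, by the edgeR test of the difference itself (high minus low, log2), at 22 of the named loci. It was positive for Cdh13 (4.63), Lsamp (4.60), Dtna (3.76), Mdga2 (3.52), Pclo (2.99), Chst9 (2.95), Cntn3 (2.91), Thsd7b (2.74), Ltbp1 (2.54), the Nell1 locus (2.48), Ralyl (2.28), Robo2 (2.18), Anks1b (1.91), the protocadherin clusters (1.84), Phactr1 (1.75) and Zbtb20 (1.61). It was negative for Ano4 (-3.08), Slc4a4 (-2.08), Msra (-2.02), Nedd4l (-1.97), Itpr1 (-1.61) and Sema5a (-1.28).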

How the results depend on the processing

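The share of very long loci higher in mutants exceeded that of matched shorter loci in all 26 settings tried in low cells (ratio 1.15 to 2.49) and all 25 in high cells (1.06 to 2.30), but its size moved, and where no value shows why the cause was not tested. The settings reuse the same 12 libraries and are not independent. The ratio of 1.06 came with the span trend removed, where the direction turned and more very long loci were lower than higher. In low cells the shares higher and lower were 6.35% and 1.27% against a fold of 1.5, 4.01% and 1.0025% within description numbers up to 7, 7.36% and 2.28% above 7, and 1.89% and 0.811% in the 8 libraries that share a description number, a setting chosen after seeing the data that has fewer samples. With no filter 2.30% were lower. In high cells 3.30% were lower against a fold of 1.5, 3.45% at a span threshold of 500 kb and 4.26% within numbers up to 7, where 20.1% were higher, and removing the span trend gave 15.2% higher and 18.3% lower. High against low, 22.6% were lower in controls within numbers up to 7, and in mutants 9.14% against a fold of 1.5 and 10.3% in the 8 libraries. The difference of effects was positive in 10.4% and negative in 1.52% against a fold of 1.5, in 7.61% and 10.4% without the span trend and in 4.26% and 0.251% within numbers up to 7, and negative in 0.690% at 500 kb and 1.35% in the 8 libraries. Leaving out 1 library gave 8.18% to 14.2% higher and 2.29% to 3.38% lower in low cells, 18.5% to 32.3% and 1.93% to 7.95% in high cells, 18.4% to 24.7% and 22.8% to 36.6% between control populations, 12.8% to 20.9% and 8.94% to 16.8% between mutant populations, and 5.76% to 16.4% and 0.964% to 3.40% for the difference. The low-cell difference in share of fragments was -0.0134 percentage points at 500 kb, the reverse of the main value, and 0.108 to 0.228 without 1 library. Without 1 library the other share differences were 0.376 to 0.480 (high cells), -0.542 to -0.438 (controls) and -0.290 to -0.170 (mutants). Samples share only a number, and not every sample correlated best with its own. With the title number as a replicate block, 13.7% were higher and 4.31% lower in low cells, 34.5% and 7.87% in high cells, 23.4% and 32.0% between control and 19.5% and 12.2% between mutant populations, and 18.3% and 3.81% for the difference. With the description number as a block the last 3 were 21.4% and 34.9%, 18.4% and 11.1%, and 12.43% and 2.16%, and it could not be fitted within a population. Under the title-number block Pcdh15 (adjusted p = 0.0576), Trhde (0.0599), Zfpm2 (0.0629) and Dlc1 (-2.16, 0.15) were not called, nor under the description-number block Diaph3 (0.0508) and the Sema5a difference (-1.20, 0.0683). Of 1704 values of 71 calls at named loci under alternatives, 1538 kept their direction and their side of the threshold, 165 lost the call and 1, Bmpr1b in high cells counted on long transcripts alone (-5.20), reversed. With 2 libraries in each high group, depth limits loci of a few fragments most.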
